A study of Mus musculus with 9 samples.

Results

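The genes described here are 44 genes of the cell division cycle, listed by symbol: 16 genes of DNA replication and nucleotide supply, 5 regulators of the passage from G1 into S phase, and 23 genes of the G2 phase and mitosis. They were found in the deposited tables by their symbol, with no threshold on a measured value, but the list was drawn up with earlier results of these data known, so its counts are a description. Of the 44 genes, 42 had a row in each table, and *Anln* and *Cenpe*, both mitotic, were not analysed here. The table of LacZ with Nrf1 has 14819 rows, that of LacZ with Nrf2 has 14986, and the direct table of both factors has 14908. All 42 genes passed the filter on low values, a mean of 10 or more in 1 of the groups, which 11453, 11630 and 11514 genes of these tables passed.

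NRVMs, ventricular cardiomyocytes taken from Sprague Dawley rats 1 or 2 days after birth, were kept in culture with 3% FBS for 48 h and infected with adenoviruses at an MOI of 50, that is, 50 infectious units per cell. The viruses carried the bacterial gene LacZ as control, mouse Nrf1 or mouse Nrf2 in a CMV vector that also encodes a red fluorescent protein, so the control cells received virus and reporter too. RNA was collected 48 h after infection and sequenced in 9 libraries, 3 per group. GEO lists the organism as mouse, while the cell type and strain are those of rat and the reads were aligned to the rat genome.

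Cells that divide first load the MCM helicase on DNA in G1, fire it in S phase with Cdc45 and GINS, and copy the genome with clamp, polymerases and a supply of deoxynucleotides. Replication genes are largely under control of E2F factors, which cyclin D and cyclin E kinases release from Rb, while most mitotic genes are transcribed later, in G2, with FoxM1 and B-Myb. Cardiomyocytes of newborn rodents stop dividing soon after birth, and many of them copy DNA without completing division in that period. Both classes of genes also report on the fibroblasts, endothelial cells and leukocytes that remain in such cultures.

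Every value below is a mean of normalized read counts over a group's libraries, as the authors computed it for the table of that pair of groups, after division by size factors. The tables hold no values per library, so there is no spread between libraries, no SD and no test, and a gene was called higher or lower past the cutoff when the ratio of its group means exceeded 1.5-fold (0.58 on the log2 scale). From the steps between the lowest means, which are whole reads of 3 libraries, the groups hold about 25.8 M reads (LacZ), 29.1 M (Nrf1) and 33.6 M (Nrf2). Each ratio therefore has a 95% counting interval, which covers counting error only and not the difference between cultures. The Nrf1 and Nrf2 comparisons share the LacZ libraries, and the direct comparison of Nrf2 with Nrf1 shares its libraries with both. *Nfe2l2*, the gene of Nrf2, was listed at 3475 in LacZ and 75066 in Nrf2, a ratio of 21.6, in which reads of the virus and of the cells' own gene are joined, and *Nfe2l1*, which encodes Nrf1, was not analysed here. Of the cardiomyocyte markers, *Tnnt2* and *Actc1*, components of the sarcomere, had LacZ means of 32049 and 34991 in the table with Nrf1.

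With Nrf1, mitotic genes were lower than in LacZ while replication genes were close to their LacZ level. All 21 mitotic genes had a lower mean, and 12 of them were lower past the cutoff, against 18.1% of all genes tested. None was higher past the cutoff, against 11.9% of all genes. The median log2 ratio was -0.60 for mitotic genes (range -1.13 to -0.06), 0.04 for replication genes (-0.34 to 0.79) and 0.00 for all genes. Of the 16 replication genes, 5 had a lower mean, where 49.8% of all genes did. The medians of the replication and mitotic genes were 0.65 apart on the log2 scale, and 17 of the 21 mitotic genes lay below the lowest replication gene. Counting error leaves 20 mitotic genes lower and none higher, against 36.9% and 38.5% of all genes, and 6 replication genes higher and 4 lower.

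**Figure D1:**
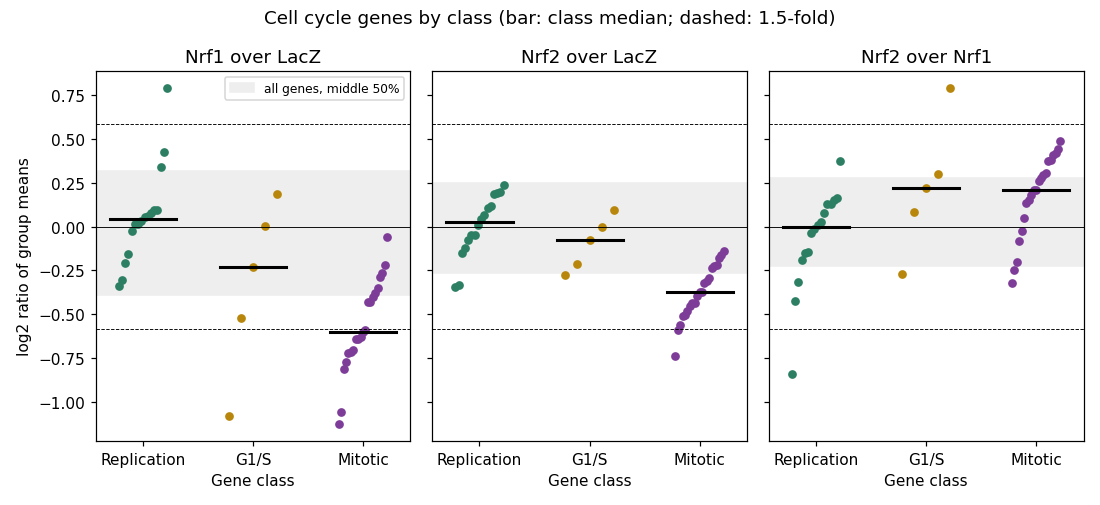
The log2 ratio of group means (vertical axis) is plotted for each gene, ordered within its class, in the 3 comparisons; bars mark class medians, dashed lines the 1.5-fold cutoff, and the grey band holds the middle 50% of all genes tested. The mitotic median lies at -0.60 for Nrf1 over LacZ, at -0.38 for Nrf2 over LacZ and at 0.21 for Nrf2 over Nrf1, while the replication medians lie between -0.003 and 0.04.

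Among the subunits of the MCM2-7 complex, the helicase that is loaded on origins in G1, *Mcm2* stood apart. Its mean was 833 in LacZ and 1440 in Nrf1, 1.73-fold higher (log2 ratio 0.79, counting interval 0.72 to 0.86), and 93.1% of all genes had a lower ratio. It was the 1 of 16 replication genes past the cutoff, where 11.9% of all genes were higher and 18.1% lower. The other 5 subunits had log2 ratios between -0.15 and 0.10. *Mcm3* was listed at 1440 in LacZ and 1540 in Nrf1, and *Mcm5* at 1510 and 1614. *Mcm6* (1572 and 1544) and *Mcm7* (1242 and 1254) differed by less than their counting error. *Mcm4* was listed at 1665 and 1497, a log2 ratio of -0.15. Within this complex, which holds its subunits in equal numbers, the ratio thus ran from 0.90 for *Mcm4* to 1.73 for *Mcm2*.

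The loading factors *Cdc6* and *Cdt1*, which bring the MCM complex to the origin, had log2 ratios of 0.05 and -0.21 with Nrf1, from LacZ means of 408 and 597 to Nrf1 means of 423 and 517. *Cdc45*, which joins the MCM complex when an origin fires, was listed at 223 in LacZ and 283 in Nrf1 (log2 ratio 0.34), and *Gins2*, a subunit of its partner GINS, at 406 and 415. The catalytic subunit of the leading-strand polymerase, *Pole*, was listed at 836 and 1122 (0.43). After *Mcm2*, *Pole* and *Cdc45* had the highest ratios of the 16 genes, with counting intervals that start at 0.35 and 0.20. The sliding clamp *Pcna* (1355 and 1371) and the flap endonuclease *Fen1* (743 and 775), which matures Okazaki fragments, lay within counting error of a ratio of 1.

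Nucleotide supply held the lowest ratios of the class. *Rrm2*, the small subunit of ribonucleotide reductase that is present mostly in S phase, was listed at 426 in LacZ and 336 in Nrf1, a log2 ratio of -0.34. *Rrm1*, the large subunit of that enzyme, was listed at 4267 and 4507 (0.08). *Tyms*, thymidylate synthase, was listed at 1092 and 884 (-0.31). The 2 ribonucleotide reductase subunits had ratios of opposite sign, and the counting intervals of both exclude 0.

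Among the G1/S regulators, the D-type cyclins were lower with Nrf1. *Ccnd2* was listed at 1055 in LacZ and 499 in Nrf1, a log2 ratio of -1.08 (counting interval -1.17 to -0.99), and *Ccnd1* at 5250 and 3653 (-0.52), short of the cutoff. *Ccnd2* was the 1 of these 5 genes past it, where 18.1% of all genes were lower and 11.9% higher. The E-type cyclins, which drive the start of S phase, were closer to LacZ, with *Ccne1* at 439 and 373 (-0.23) and *Ccne2* at 1051 and 1053 (0.00). The transcription factor *E2f1* was listed at 379 and 431 (0.19), the highest ratio of this class. Thus 3 of the 5 genes had a lower mean, where 49.8% of all genes did, and the class median was -0.23.

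The 4 lowest mitotic ratios in Nrf1 were those of *Plk1*, *Kif23*, *Cdc20* and *Mki67*. *Plk1*, the kinase of mitotic entry, spindle assembly and cytokinesis, was listed at 254 in LacZ and 116 in Nrf1, a log2 ratio of -1.13 (counting interval -1.31 to -0.95). *Kif23*, the kinesin of the central spindle, was listed at 543 and 261 (-1.06). With ratios of 0.46 and 0.48, these were the 2 of 21 mitotic genes past 2-fold. *Cdc20*, which activates the anaphase-promoting complex, was listed at 320 and 182 (-0.81), and *Mki67*, the proliferation antigen that coats mitotic chromosomes, at 2696 and 1577 (-0.77).

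Spindle checkpoint and kinetochore genes followed. The checkpoint kinases *Ttk* (305 and 185, log2 ratio -0.72) and *Bub1* (544 and 334, -0.70) were lower past the cutoff, and so was the kinetochore protein *Cenpf* (581 and 372, -0.64). *Bub1b*, the BubR1 component of the same checkpoint, was listed at 363 and 298 (-0.29), short of it. *Foxm1*, the transcription factor of many G2/M genes, was listed at 370 and 225 (-0.72). Of the Aurora kinases, *Aurka*, of the spindle poles, was listed at 307 and 199 (-0.63), and *Aurkb*, of the chromosomal passenger complex, at 224 and 170 (-0.40). *Birc5*, survivin, of that same complex, was listed at 88.6 and 84.9 (-0.06, counting interval -0.31 to 0.19), the 1 mitotic gene whose interval includes 0.

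Further spindle genes were the kinesin *Kif20a* (634 and 417, log2 ratio -0.60) and the microtubule-binding protein *Nusap1* (207 and 138, -0.59), which lay just past the cutoff, and *Tpx2*, the activator of Aurora A (922 and 685, -0.43), and the spindle motor *Kif11* (721 and 618, -0.22), which did not reach it. *Top2a*, the topoisomerase that disentangles sister chromatids, was listed at 1150 and 854 (-0.43). The engine of mitotic entry itself was among the members with the smaller differences. *Cdk1* was listed at 387 in LacZ and 304 in Nrf1 (-0.35), *Ccna2* at 561 and 432 (-0.38), and *Ccnb1* at 364 and 303 (-0.26). *Ccnb2* was lower past the cutoff at 99.8 and 63.9 (-0.64), with only 289 and 201 reads behind its means and a counting interval of -0.90 to -0.38.

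**Figure D2:**
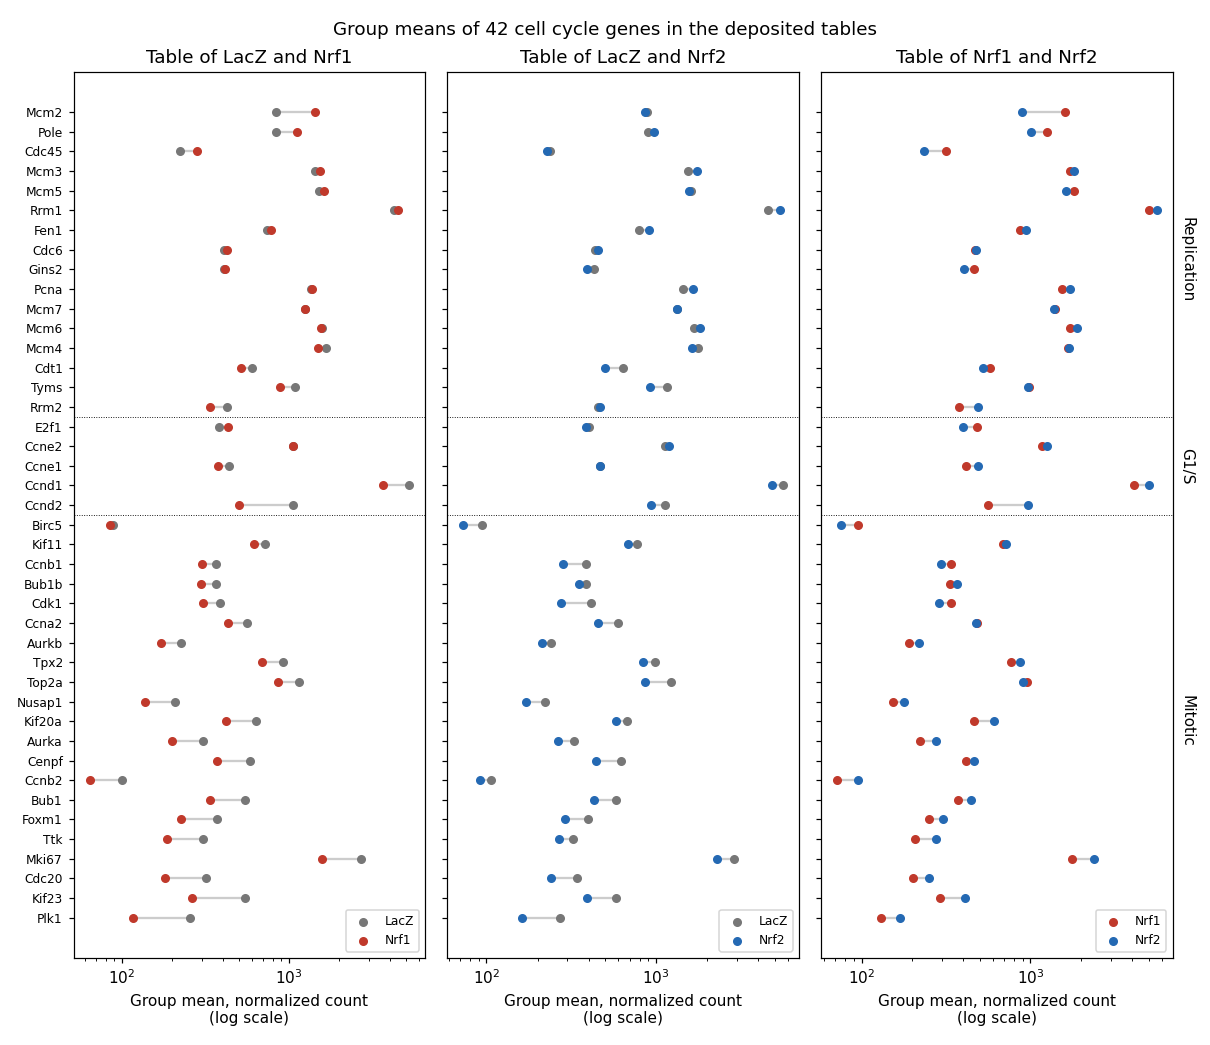
The horizontal axes (log scale) give the authors' group mean of normalized counts for each of 42 genes in each of the 3 tables; grey points are LacZ, red Nrf1 and blue Nrf2, and each line joins the 2 means of a gene. In the first panel every mitotic point of Nrf1 lies left of its LacZ point, from *Plk1* (254 and 116) to *Birc5* (88.6 and 84.9), while most replication pairs overlap.

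Markers of fibroblasts, leukocytes and endothelial cells were lower with Nrf1 as well. Of 13 fibroblast markers, 12 were lower past the cutoff (median log2 ratio -1.91), and their summed mean was 214759 in LacZ and 103376 in Nrf1. Of 12 leukocyte markers tested, 11 were lower (median -1.59, summed mean 1664 and 873), and of 10 endothelial markers 7 were (median -0.91, summed mean 2140 and 1426). Of 10 markers of mural cells, 4 were lower and 3 higher (median -0.25), and their summed mean was higher with Nrf1 (49738 in LacZ and 88272 in Nrf1). Of 12 cardiomyocyte markers, 4 were lower and 2 higher (median -0.28, summed mean 144239 and 142263), and no marker of these lists was at 0 in either group. The medians of the fibroblast, leukocyte and endothelial markers were lower than the mitotic median of -0.60, whereas the replication median was 0.04. The part of these cells in the ratios of the mitotic genes was not tested, and in bulk RNA fewer dividing cells cannot be told apart from less of these transcripts per cell.

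With Nrf2, mitotic genes were again lower than in LacZ and replication genes were again near their LacZ level, but the differences were smaller. All 21 mitotic genes had a lower mean, where 50.4% of all genes did, and only 2 were lower past the cutoff, against 10.9% of all genes. No member was higher past it, against 9.78% of all genes. The median log2 ratio was -0.38 for mitotic genes (range -0.74 to -0.14) and 0.02 for replication genes (-0.34 to 0.24), which left the medians 0.40 apart. Of the 21 mitotic genes, 12 lay below the lowest replication gene. Counting error leaves 20 mitotic genes lower and none higher, against 33.3% and 34.7% of all genes, and 6 replication genes higher and 4 lower.

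The 2 mitotic genes past the cutoff with Nrf2 were *Plk1* and *Cdk1*. *Plk1* was listed at 272 in LacZ and 163 in Nrf2 (log2 ratio -0.74), and *Cdk1* at 414 and 275 (-0.59). *Kif23* (580 and 393, -0.56) lay just short of it. *Plk1* thus had the lowest mitotic ratio in both comparisons with LacZ, while *Cdk1* came next with Nrf2 but was among the mitotic genes nearer to LacZ with Nrf1. Log2 ratios between -0.51 and -0.40 were found for *Cdc20* (-0.51), *Top2a* (-0.51), *Cenpf* (-0.48), *Ccnb1* (-0.46), *Bub1* (-0.44), *Foxm1* (-0.44) and *Ccna2* (-0.40). *Birc5* was listed at 94.6 and 72.9 (-0.38), with a counting interval of -0.63 to -0.12.

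The remaining mitotic genes had Nrf2 ratios nearer to 1. *Nusap1* had a log2 ratio of -0.37, *Mki67* of -0.32 (2879 and 2302), *Aurka* of -0.31 and *Ttk* of -0.29. The ratios of *Tpx2* (-0.24), *Ccnb2* (-0.23), *Kif20a* (-0.22), *Aurkb* (-0.18), *Kif11* (-0.16) and *Bub1b* (-0.14) were the closest to LacZ. For *Ccnb2*, listed at 107 in LacZ and 91.2 in Nrf2, the counting interval of -0.46 to 0.01 includes 0.

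The replication genes had ratios between 0.79 and 1.18 with Nrf2. *Mcm2* was listed at 890 in LacZ and 861 in Nrf2 (log2 ratio -0.05), so the difference seen with Nrf1 had no counterpart here. The highest ratios were those of *Rrm1* (4557 and 5371, 0.24), *Fen1* (793 and 909, 0.20), *Pcna* (1447 and 1650, 0.19) and *Mcm3* (1538 and 1747, 0.18), and their counting intervals exclude 0. *Pole* (0.12), *Mcm6* (0.11), *Cdc6* (0.07), *Rrm2* (0.04) and *Mcm7* (0.01) followed. *Mcm5* (-0.05), *Cdc45* (-0.07), *Mcm4* (-0.12) and *Gins2* (-0.15) were slightly lower. The lowest ratios were those of *Cdt1* (638 and 502, -0.34) and *Tyms* (1166 and 924, -0.34), which were also lower with Nrf1.

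None of the 5 G1/S regulators passed the cutoff with Nrf2, against 10.9% of all genes lower and 9.78% higher. Of the 5, 4 had a lower mean, where 50.4% of all genes did. *Ccnd2* was listed at 1127 in LacZ and 929 in Nrf2 (log2 ratio -0.28) and *Ccnd1* at 5606 and 4831 (-0.21). *E2f1* (405 and 384, -0.07) and *Ccne1* (469 and 468, -0.003) lay within counting error, and *Ccne2* was listed at 1122 and 1197 (0.09). Of the other cell types' markers, 10 of 13 fibroblast markers (median -0.99, summed mean 229344 in LacZ and 113493 in Nrf2), 11 of 12 leukocyte markers (median -1.002, summed mean 1777 and 1050) and 6 of 10 endothelial markers (median -0.82, summed mean 2286 and 1598) were lower past the cutoff with Nrf2. In the other direction, 1 fibroblast marker and 1 endothelial marker were higher past it. Of 10 mural markers, 2 were lower and 2 higher past it (median 0.11), and their summed mean was 53112 in LacZ and 73648 in Nrf2. None of the 12 cardiomyocyte markers passed the cutoff, with a median of 0.18 and a summed mean of 154017 in LacZ and 172206 in Nrf2. The part of these cells in the Nrf2 values was not tested either.

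Nrf1 and Nrf2 were compared directly in the third table, whose log2 ratio differs from the difference of the 2 log2 ratios to LacZ by a constant -0.008 for each member, so it is no independent measurement. Mitotic genes were on the whole higher in Nrf2 than in Nrf1: 16 of 21 had a higher mean, the median log2 ratio of Nrf2 over Nrf1 was 0.21, and none passed the cutoff, against 12.3% of all genes higher and 5.16% lower. Replication genes were evenly split, with 8 of 16 lower, where 50.5% of all genes were, and a median of -0.003. The medians of the replication and mitotic genes differed by -0.21, and no mitotic gene lay below the lowest replication gene. Counting error leaves 15 mitotic genes higher and 4 lower, against 33.5% and 34.5% of all genes.

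The 2 members past the cutoff in this table were *Mcm2* and *Ccnd2*. *Mcm2* was listed at 1606 in Nrf1 and 894 in Nrf2 (log2 ratio -0.84, counting interval -0.91 to -0.78), and only 2.05% of all genes had a lower ratio. *Ccnd2* was listed at 557 and 965 (0.79, counting interval 0.71 to 0.88). These are the members with the most distinct levels under the 2 factors. *Ccnd1* (4075 and 5020, 0.30) and *Ccne1* (417 and 486, 0.22) were higher in Nrf2 too, *Ccne2* (0.08) less so, and *E2f1* was lower (481 and 399, -0.27).

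The mitotic genes did not all take the same direction between Nrf1 and Nrf2. The highest log2 ratios of Nrf2 over Nrf1 belonged to *Kif23* (291 and 408, 0.49), *Mki67* (1759 and 2392, 0.44), *Ttk* (207 and 277, 0.42), *Ccnb2* (71.3 and 94.8, 0.41), *Plk1* (130 and 169, 0.38) and *Kif20a* (466 and 604, 0.38). *Aurka* (0.31), *Cdc20* (0.30), *Foxm1* (0.28), *Bub1* (0.26), *Aurkb* (0.21), *Nusap1* (0.21), *Tpx2* (0.18), *Cenpf* (0.15), *Bub1b* (0.14) and *Kif11* (0.05) were higher by less. The 5 genes with a lower mean in Nrf2 were *Birc5* (94.7 and 75.7, -0.32), *Cdk1* (339 and 286, -0.25), *Ccnb1* (338 and 294, -0.20), *Top2a* (952 and 899, -0.08) and *Ccna2* (482 and 473, -0.03). That group holds the kinase of mitotic entry and its A- and B1-type cyclins. Its members, apart from *Ccna2*, have a counting interval that excludes 0.

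Within the replication genes, *Cdc45* (316 in Nrf1 and 235 in Nrf2, log2 ratio -0.42) and *Pole* (1252 and 1006, -0.32) stood beside *Mcm2* at the low end. *Rrm2* (375 and 487, 0.38) had the highest ratio. *Pcna* (0.16), *Rrm1* (0.15), *Fen1* (0.13), *Mcm6* (0.13), *Mcm3* (0.08), *Mcm4* (0.03) and *Cdc6* (0.01) had a higher mean in Nrf2. *Mcm7* (-0.01), *Tyms* (-0.04), *Cdt1* (-0.14), *Mcm5* (-0.15) and *Gins2* (-0.19) had a lower one. Beside these values, 9 of 13 fibroblast markers were higher in Nrf2 than in Nrf1 and 2 lower (median 0.77, summed mean 115332 in Nrf1 and 117931 in Nrf2), and 6 of 12 leukocyte markers were higher (median 0.52, summed mean 973 and 1091). Of 12 cardiomyocyte markers, 5 were higher past the cutoff and none lower (median 0.47, summed mean 158722 and 178938). Among the higher ones were *Tnni3* (1.19), *Myl2* (0.84) and *Myh7* (0.80). Short of the cutoff, 4 of the 12 had a lower mean: *Nkx2-5* (-0.43), *Ryr2* (-0.40), *Actc1* (60310 and 47030, -0.36) and *Pln* (-0.04). Of 9 mural markers tested, 4 were higher and none lower (median 0.51). The summed mean of the mural list was nevertheless lower in Nrf2 (98484 in Nrf1 and 76528 in Nrf2). Of 10 endothelial markers 1 was higher (median 0.11, summed mean 1591 and 1660). Past the cutoff, 12.3% of all genes were higher in Nrf2 and 5.16% lower. The fibroblast, leukocyte, cardiomyocyte and mural medians exceed the mitotic median of 0.21, and the part of these cells in the direct comparison was not tested.

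**Figure D3:**
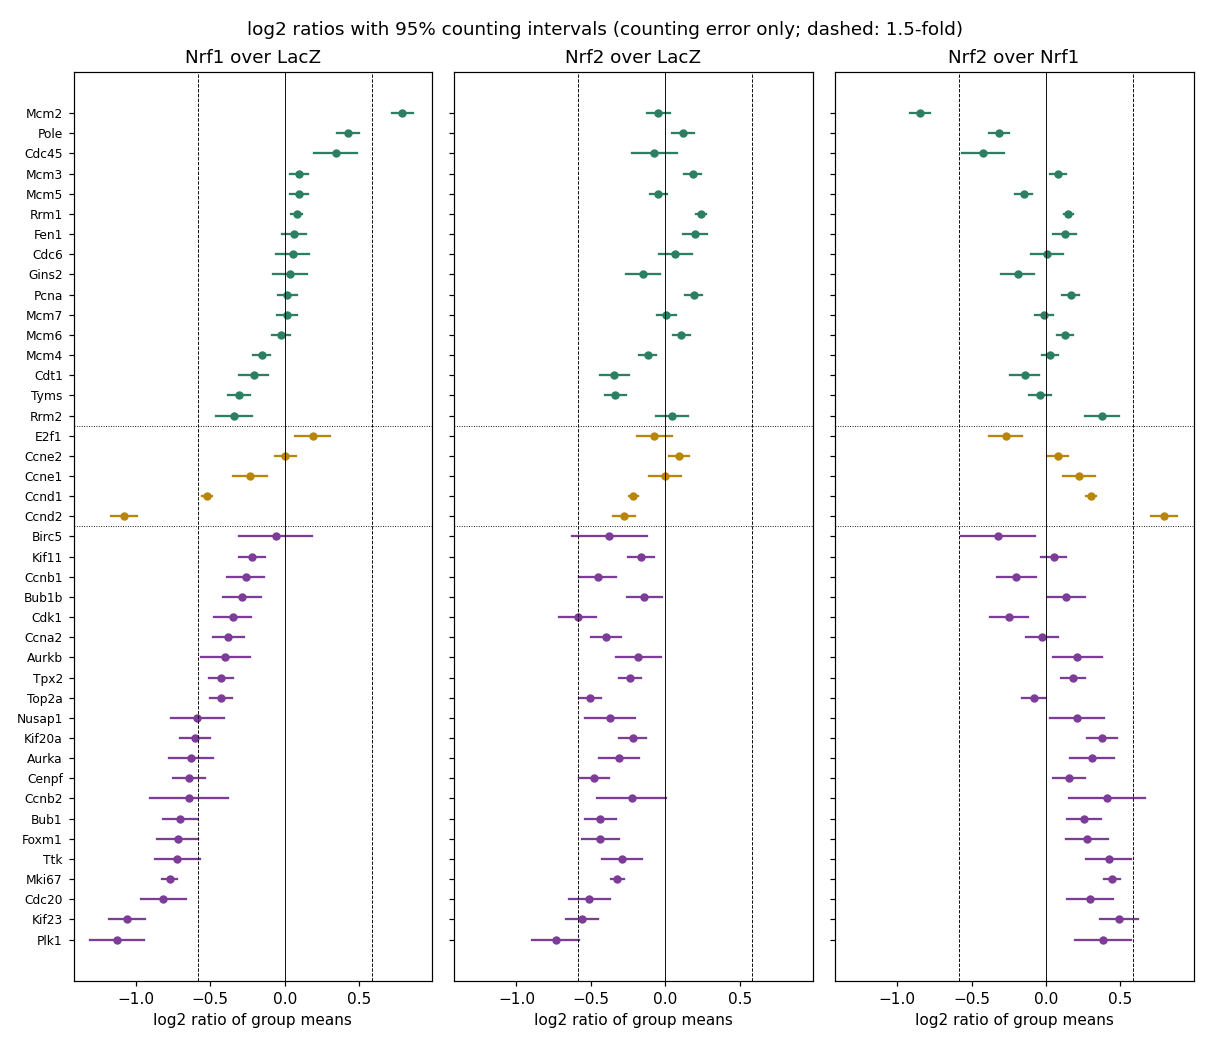
Points give the log2 ratio of group means of each of 42 genes (green replication, yellow G1/S, purple mitotic), lines its 95% counting interval, which covers counting error only, and dashed lines the 1.5-fold cutoff. *Mcm2* (0.79) and *Ccnd2* (-1.08) lie farthest from 0 in their classes for Nrf1 over LacZ. Nrf2 over Nrf1 uses the same Nrf1 libraries as the denominator, and there the ratios are -0.84 and 0.79.

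Further genes of the same steps were taken from lists by function. Of 47 further replication genes tested with Nrf1, 5 were higher past the cutoff and 1 lower, with a median log2 ratio of 0.07. The higher genes are a share near the background of 11.9% of all genes, and the lower one stands against 18.1%. Those past the cutoff are named as values of single genes. *Prim1*, the catalytic subunit of primase, was listed at 1177 in LacZ and 2500 in Nrf1 (1.09). *Gins1*, another GINS subunit, was listed at 79.0 and 164 (1.05), *Tipin*, of the fork protection complex, at 59.9 and 114 (0.93). *Dut*, dUTPase (0.91), and *Gmnn*, geminin, the inhibitor of Cdt1 (0.62), were the other two, and *Chaf1b*, of the chromatin assembly factor, was lower (247 and 156, -0.67). With Nrf2, *Tipin* was the 1 gene past the cutoff (63.9 and 97.0, 0.60), where 9.78% of all genes were higher and 10.9% lower. The median was -0.02. In Nrf2 over Nrf1, *Prim1* (-1.02) and *Gins1* (-0.60) were lower and *Chaf1b* (0.63) was higher, against 5.16% and 12.3% of all genes. The median there was -0.12, and 31 of the 47 genes had a lower mean in Nrf2, where 50.5% of all genes did. Counting error leaves 25 lower and 10 higher, against 34.5% and 33.5% of all genes.

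Of 50 further mitotic genes tested, 44 had a lower mean with Nrf1, 17 of them past the cutoff, and the median log2 ratio was -0.36. Of all genes, 49.8% had a lower mean and 18.1% were lower past the cutoff. The lowest were *Sgol2*, shugoshin, the protector of centromeric cohesion (122 and 61.3, -0.99), and the centromere genes *Cenpa* (72.9 and 38.2, -0.93) and *Cenpi* (203 and 110, -0.88). *Cdc25b*, a phosphatase that activates Cdk1, was the 1 gene higher past the cutoff, listed at 196 in LacZ and 513 in Nrf1 (1.39). With Nrf2, 40 of the 50 had a lower mean, with a median of -0.19, against 50.4% of all genes. Lower past the cutoff were 2, fewer than the 10.9% of all genes: *Ube2c*, of the anaphase-promoting pathway (-0.67), and the kinesin *Kifc1* (-0.61). *Cdc25b* had a log2 ratio of 0.57 with Nrf2. In Nrf2 over Nrf1 it was lower (572 and 322, -0.83), and *Melk* (0.83), *Cdca2* (0.64), *Cenpi* (0.61) and *Pttg1* (0.61) were higher. These calls, 1 lower and 4 higher of 50, are fewer than the 5.16% and 12.3% of all genes. The median there was 0.15, and 40 of the 50 had a higher mean in Nrf2, where 50.5% of all genes had a lower one.

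Inhibitors of the cyclin-dependent kinases and pocket proteins were not higher than in LacZ as a group. The median log2 ratio of the 10 genes was -0.22 with Nrf1 and -0.08 with Nrf2. With Nrf1, *Cdkn2a*, which encodes p16 and ARF, was listed at 95.05 in LacZ and 35.9 in Nrf1 (log2 ratio -1.41) and *Cdkn1c*, p57, at 794 and 376 (-1.08), both past the cutoff. The other inhibitors and pocket proteins lay within it: *Rb1* (-0.46), *Cdkn1b* (-0.36), *Rbl2* (-0.23), *Cdkn1a*, p21 (14312 and 12257, -0.22), *Cdkn2c* (-0.09), *Cdkn2b* (0.01), *Cdkn3* (0.30) and *Rbl1* (0.39). With Nrf2, *Cdkn3*, a phosphatase of Cdk2 and Cdk1, was higher (368 and 730, 0.99) and *Cdkn1c* lower (848 and 548, -0.63). *Rb1* (-0.38), *Cdkn2a* (-0.29), *Cdkn1b* (-0.27), *Rbl1* (-0.11), *Cdkn2b* (-0.05), *Rbl2* (0.01), *Cdkn1a* (0.05) and *Cdkn2c* (0.32) did not pass the cutoff. In Nrf2 over Nrf1, 8 of the 10 had a higher mean and 2 a lower one (median 0.24), where 50.5% of all genes had a lower one. Counting error leaves 8 higher and 1 lower, against 33.5% and 34.5% of all genes. Past the cutoff, *Cdkn2a* (40.0 and 86.2, 1.11) and *Cdkn3* (475 and 759, 0.68) were higher, against 12.3% of all genes, and none was lower.

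Few other regulators of G1/S and of the replication checkpoint passed the cutoff, in short lists of 12 and 9 genes. Of all genes, 18.1% were lower and 11.9% higher past it with Nrf1, and 10.9% and 9.78% with Nrf2. In Nrf2 over Nrf1 these shares were 5.16% and 12.3%. Of 12 further G1/S regulators, *E2f7*, a repressor E2F, was the 1 gene past the cutoff with Nrf1 (115 in LacZ and 68.9 in Nrf1, log2 ratio -0.74), and none passed it with Nrf2. *E2f4* was lower in Nrf2 than in Nrf1 (372 and 243, -0.62). None of 9 checkpoint kinases and their partners passed the cutoff against LacZ, and *Rad17*, the clamp loader of the checkpoint, was lower in Nrf2 than in Nrf1 (750 and 499, -0.59). With Nrf1, 7 of the 9 checkpoint genes had a higher mean than LacZ and 2 a lower one. Of all genes, 49.8% had a lower mean. Counting intervals lay above 0 for 4 of the 9 and below 0 for 2, against 38.5% and 36.9% of all genes. The highest ratio was that of *Rad17* (457 and 673, 0.56). The list medians for Nrf1 over LacZ were -0.06 for G1/S regulators and 0.18 for checkpoint genes.

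**Figure D4:**
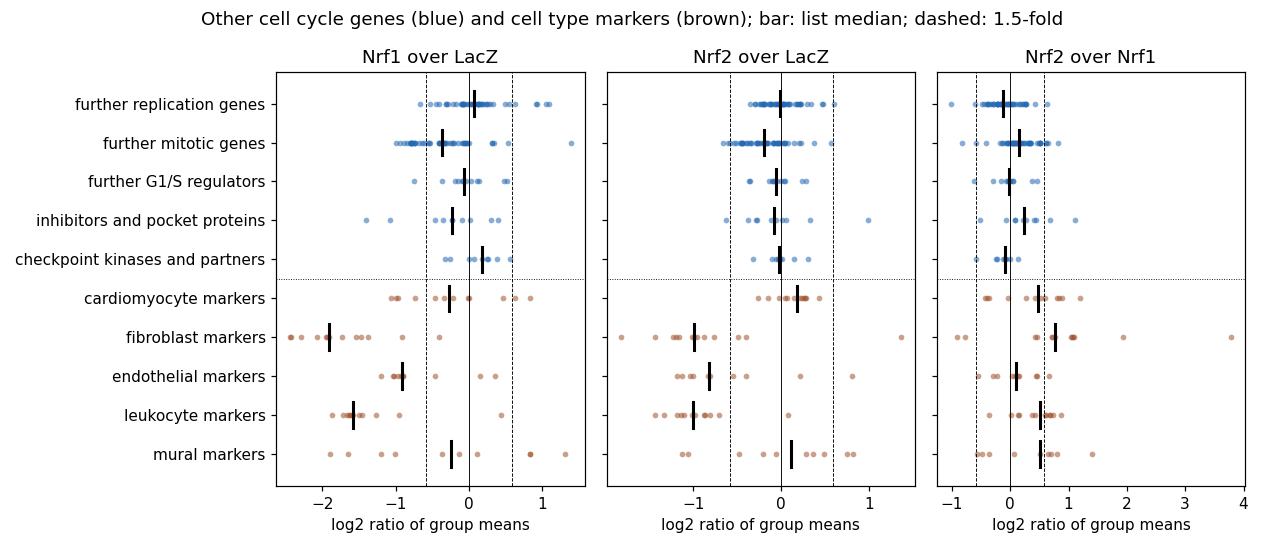
The log2 ratio of group means (horizontal axis) is plotted for the other cell cycle genes (blue) and cell type markers (brown) that passed the filter, by list and comparison; bars mark list medians and dashed lines the 1.5-fold cutoff. For Nrf1 over LacZ the medians are -0.36 for further mitotic genes, 0.07 for further replication genes and -1.91 for fibroblast markers.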

How the data were processed

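RNA of 9 libraries, 3 each of NRVMs with LacZ, Nrf1 or Nrf2, was measured. According to the methods and processing notes of the study, the authors checked reads with FastQC (0.11.4), aligned them to Rnor_6.0 with HISAT2 (2.0.4), removed duplicates with SAMtools (0.1.18), counted reads per gene with featureCounts (1.6.0) and compared groups with edgeR (3.20.5). Duplicate removal from single-end reads can lower the counts of abundant genes. The libraries were stranded and the alignment used a strand setting. The strand setting of the counting is not given in the sources used here, so reads of overlapping genes cannot be assigned to either. The authors deposited 3 tables, 1 per pair of groups, whose signal is a mean of counts per group, divided by size factors and computed for each pair on its own. Levels were therefore compared only within a table. The tables also hold the authors' fold changes and p-values, which were not used.

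From the means, the ratio, its log2 value and class medians were computed with Python 3.11.15, pandas 2.3.3 and NumPy 2.4.6. Genes with means under 10 in both groups were left out, and the fold cutoff of 1.5 is that of the study. Means below 3 were whole reads of 3 libraries for 100% of values (absolute tolerance 2e-06). This gives the reads behind a mean and a 95% counting interval of the log2 ratio. Ratios and calls were checked on simulated data. Every member with a row was named. Of the other lists, genes past the cutoff with the 3 largest ratios in each direction and all inhibitors and pocket proteins were named, and the markers by counts, medians and abundant examples. *Dut*, *Gmnn*, *Pttg1*, *Rad17* with Nrf1 and *Cdc25b* with Nrf2 were named beyond this rule with their values known. So were cardiomyocyte markers in the direct comparison. The members and lists were chosen with earlier results of these data known. Both LacZ tables have 26 rows whose symbol became a date and 4 rows with a repeated symbol, and none of these was matched. Alternatives were a cutoff of 2, no minimum mean or one of 100, a pseudocount of 1, re-centring on the median over genes that reach 100, other class lists and the counting interval as the call. Sequences and coordinates of these rat genes were not used here. Samples were grouped by the overexpressed gene given in their labels.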

Additional observations from a re-analysis of the deposited data

How the results depend on the processing

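Of 147 values recomputed under alternatives, 126 kept within 1.5 times their count or 0.1 on the log2 scale of their value, and 21 moved. A change of sign was not labelled apart, so a median near 0 could change sign and still count as kept. Class medians and the difference between replication and mitotic genes were among those that stayed, under all 39 alternatives run on them. With a fold cutoff of 2, the mitotic genes called lower were 2 for Nrf1 and 0 for Nrf2, where the cutoff of 1.5 gave 12 and 2, and the calls of *Mcm2* (Nrf1 over LacZ, Nrf2 over Nrf1) and of *Ccnd2* (Nrf2 over Nrf1) were lost, which left 0 in each. With the counting interval as the call, which was chosen after seeing the data, the Nrf1 comparison had 6 replication genes higher and 4 lower, 1 G1/S regulator higher and 3 lower, and 20 mitotic genes lower. The Nrf2 comparison had 6 and 4, 1 and 2, and 20. Nrf2 over Nrf1 had 6 replication genes higher and 6 lower, 4 G1/S regulators higher and 1 lower, and 15 mitotic genes higher and 4 lower. At these depths the interval excludes 0 for differences well under 1.5-fold. Over genes that reach a mean of 100 the median log2 ratios were 0.05, 0.01 and -0.03, and re-centring on them moved the replication median of Nrf1 over LacZ from 0.04 to -0.01 and that of Nrf2 over Nrf1 from -0.003 to 0.03, and it turned no class median larger than 0.1. No paired analysis was possible because the tables hold group means only, and for the same reason no library could be left out and no spread between libraries can be given.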
